A study of Talpa occidentalis with 2 samples.

Results

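The most gene-dense neighbourhoods of the Iberian mole genome were taken from the deposited gene annotation of build talOcc3. A gene model was a member when at least 60 other models had their 5′ end within 1 Mb of its own 5′ end on the same scaffold. These other models are called its neighbours below. Members were thus chosen by the positions of the models themselves, and no other measurement entered. By this rule 3797 of 23336 models were members, which is 16.3% of them, on 23 of 2074 scaffolds. Members within 1 Mb of each other were merged, which gave 42 neighbourhoods. The annotation accompanied a 4C-seq study of embryos of the mole Talpa occidentalis, in which ligated chromatin fragments are sequenced from a chosen viewpoint to read which parts of a chromosome lie near it. There was 1 library from forebrain and 1 from hindlimb, both wild type and of embryonic day 15, cut first with NlaIII and then with DpnII, with the start site of FGF9 as viewpoint. FGF9, a growth factor gene, lay on scaffold 38 with 13 neighbours, and no model of that scaffold was a member. No column of the annotation belongs to a library, so 4C contacts were not analysed here, depth is unknown, and there are no replicates.

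Mammalian genes are spread unevenly, and gene-rich stretches usually hold short genes with short introns, many of them active in most cells. Other crowded stretches are arrays of related genes that arose by repeated copying of a neighbour, such as those for olfactory receptors, the odour sensors of the nose, and for keratins, the filament proteins of skin and hair. Because the rule used the positions of the models, the density, gene span, gaps and overlaps that follow are descriptions of the members, and no test was made on them.

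Members had a median of 79 neighbours, with quartiles of 68 and 96, against a median of 20 among all other models. The highest count was 162. There were 1057 members with 60 to 69 neighbours and 784 with 100 or more. At the edge of the rule, 125 members had exactly 60 neighbours and 225 other models had 59. Of the models at 59, 60 lay on scaffold 59 alone, the stretch of immune and housekeeping genes described further down. Models thus lie on both sides of the threshold without a gap, and membership is a range of density, not a separate class.

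**Figure D1:**
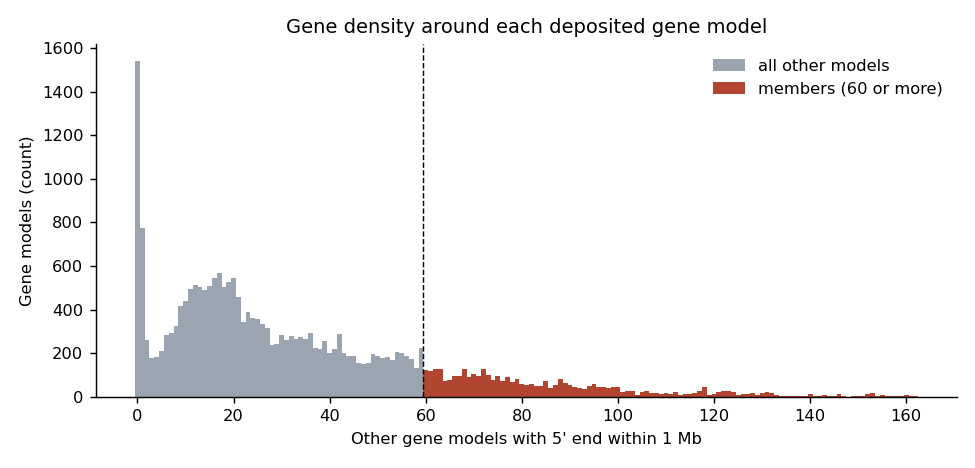
Number of gene models (vertical axis, count) at each number of other models with their 5′ end within 1 Mb (horizontal axis), for all 23336 models. Members (red) start at 60, right of the dashed line, and reach 162, while the step at 59 includes the 60 models of scaffold 59.

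The neighbourhoods together covered 90.5 Mb, which is 4.74% of the 1912 Mb of annotated length on the 57 scaffolds of at least 1 Mb. They were unequal in size. The median neighbourhood held 53.5 members over 1.37 Mb, 13 neighbourhoods held at least 100 members, and 6 held fewer than 10. The 3 neighbourhoods with most members held 34.34% of all members, and the 10 with most held 63.2%. The smallest by members was the phosphatase gene PPM1F on scaffold 11, alone in its neighbourhood with exactly 60 neighbours. Scaffold 36 was nearly all dense, with 448 of its 505 models (88.7%) in 1 neighbourhood. On scaffold 34 members were 66.2% of the models, on scaffold 18 they were 63.5% and on scaffold 28 they were 56.4%. Scaffold 2, which has the most models of the 23 scaffolds with a member, had 92 members among 1404 models (6.55%), in 4 neighbourhoods. Of the 42 neighbourhoods, 10 began or ended within 1 Mb of a scaffold's first or last annotated base, where part of the counting window holds no model.

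**Figure D2:**
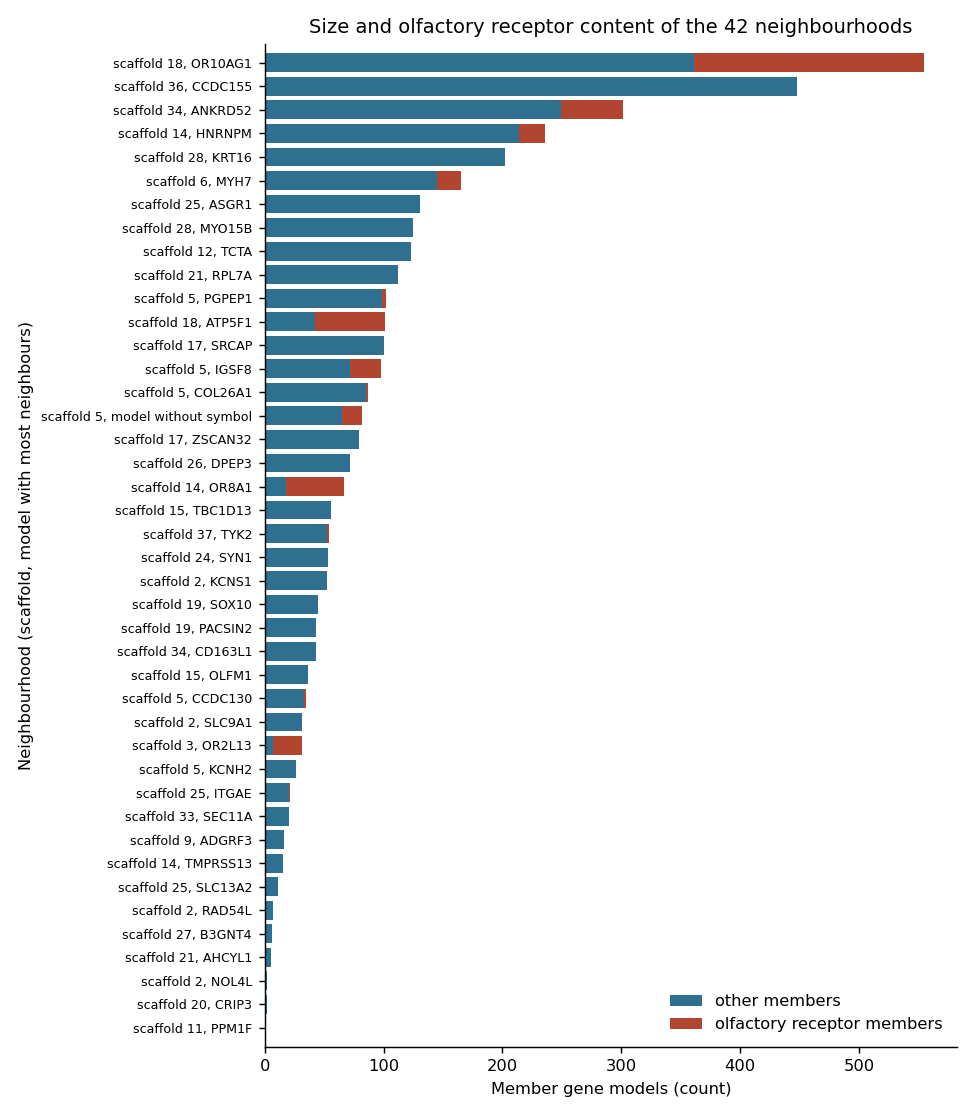
Member gene models (horizontal axis, count) in each of the 42 neighbourhoods, named by scaffold and by the model with most neighbours, with olfactory receptor models in red. Neighbourhoods run from 555 members to 1, and 28 of them hold no olfactory receptor.

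The neighbourhood with most members lay on scaffold 18 between bases 912586 and 11577062. It held 555 members over 10.7 Mb, from NAP1L4, a histone chaperone gene, to ARFGAP2, a regulator of vesicle coats. Its density had separate maxima. The highest was within an array of olfactory receptors, where OR10AG1_copy7 (9809068 to 9810015, plus strand, 1 coding exon of 948 bases) had 162 neighbours, as did OR10AG1_copy8 next to it. The 4 members with 161 or 162 neighbours were all OR10AG1 models within that array, and 8 members had 160. The other maximum, 136 neighbours at PACS1_copy2, was among genes of human chromosome 11q13 that are no receptors. RELA, which encodes a subunit of NF-kappaB, had 130 there, and CFL1, which encodes the actin regulator cofilin, had 115.

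Scaffold 36 carried the next largest neighbourhood, 448 members over 9.72 Mb between 8278171 and 18000243, with no olfactory receptor. It ran from LSM14A, an RNA-binding protein gene, to HAS1, a hyaluronan synthase gene that lies within the span of a ZNF model. Density was highest around CCDC155, with 123 neighbours, a count that other models nearby shared. Around it stood DKKL1 (122), TEAD2, a transcription factor of the Hippo pathway (122) and SLC17A7, a vesicular glutamate transporter gene (120). All 448 models inside this stretch were members, so the density did not fall below the threshold between its ends. The model of ZFP30, a zinc finger gene, was the longest member there at 300.2 kb, and that of BLOC1S3 the shortest at 150 bases. The ZFP30 model had 12 coding exons and overlapped another model, and the BLOC1S3 model had 1 coding exon. Whether either model is 1 whole gene was not tested.

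On scaffold 34, 301 members lay within 6.52 Mb, with the highest count, 144, at ANKRD52 (14984807 to 15004655). The 5 named multi-exon models nearest to it, COQ10A, CS (citrate synthase of the Krebs cycle), SLC39A5 (a zinc transporter), NABP2 and RNF41, each had 143. On scaffold 14, 236 members lay within 5.38 Mb around HNRNPM, an RNA-binding protein gene with 122 neighbours. INSR, the insulin receptor gene, was the longest model of that stretch at 268.6 kb and had 73 neighbours. The remaining neighbourhoods of the 10 with most members had their highest counts at KRT16, a keratin gene, on scaffold 28 (103 neighbours, 202 members), at MYH7 on scaffold 6 (100, 165 members), at ASGR1, a liver receptor for glycoproteins, on scaffold 25 (124, 131 members), at MYO15B on scaffold 28 (95, 125 members), at TCTA on scaffold 12 (91, 123 members) and at RPL7A_copy16 on scaffold 21 (81, 112 members). Several of these highest counts were shared with models close by. KRT17, KRT17_copy2 and KRT17_copy3 also had 103, and DLG4 and ACADVL also had 124. MYO15B_copy2 and MYO15B_copy3 also had 95, and AMT and NICN1 also had 91. The MYH7 and RPL7A_copy16 peaks were short single-exon exonerate models of 384 and 252 bases, so the model with most neighbours is not always a full gene. The MYH7 model lay inside a model of MYH6, a heart myosin gene, on the opposite strand, which had 37 coding exons and the same count of 100.

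**Figure D3:**
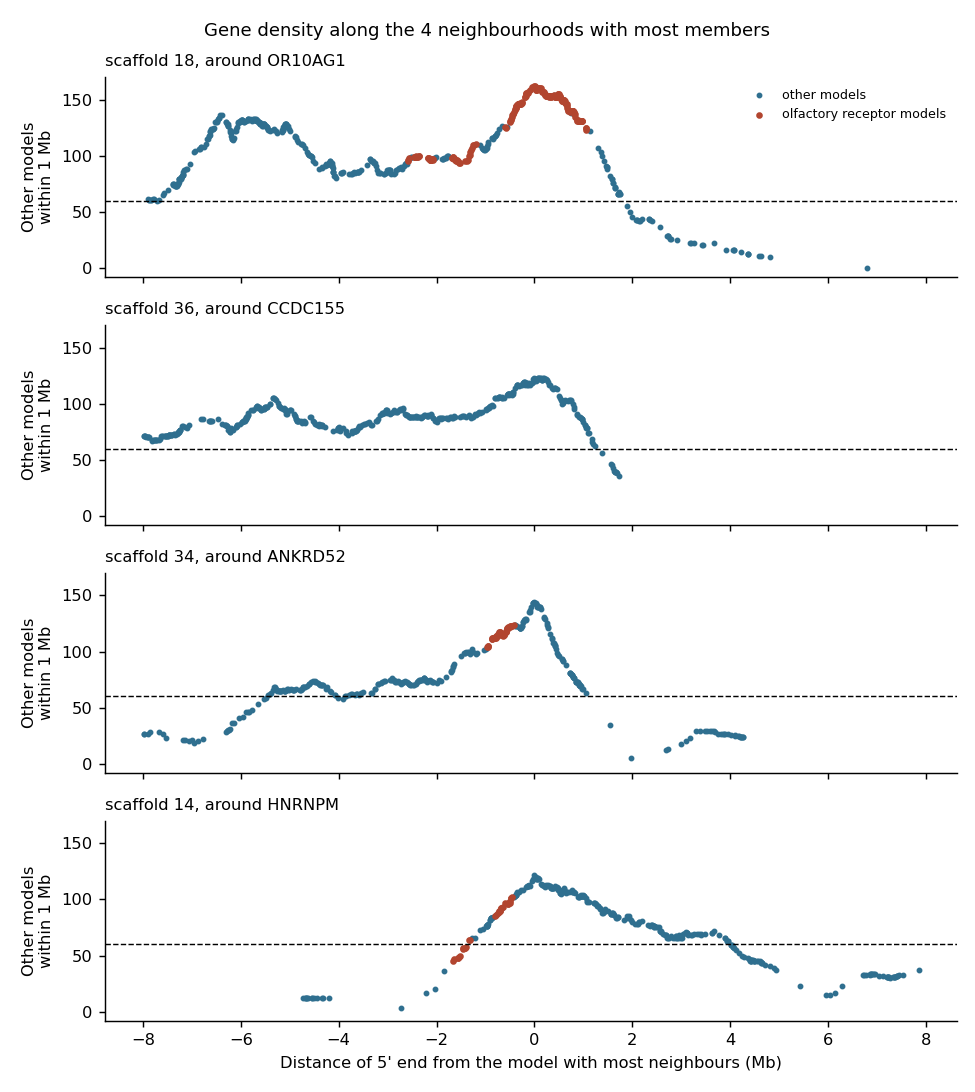
Other models within 1 Mb (vertical axis, count) against the distance of each model's 5′ end from the model with most neighbours (horizontal axis, Mb), for the 4 neighbourhoods with most members. The dashed line marks 60, and olfactory receptors (red) sit at the 162 peak of scaffold 18, while the 448 members on scaffold 36 include none. Models up to 8 Mb away are drawn.

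Gene models in the neighbourhoods were short. Their median span from first to last base was 4.80 kb (quartiles 1.38 and 11.02 kb), against 7.92 kb for all other models and 11.3 kb for the 16614 others on scaffolds of at least 1 Mb. Among EVM models, which combine several lines of evidence and seldom have only 1 coding exon, the medians were 6.77 kb for 2733 members and 17.3 kb for 12248 others. Spans of 100 kb or more were held by 37 members (0.97%) and by 6.11% of the others. Spans under 10 kb were held by 72.0% of the members and by 54.2% of the others.

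The coding part of the genes, which the rule did not use, differed far less. EVM members and EVM others both had a median of 8 coding exons. Their median coding length was 1326 bases (95% interval of the median 1284 to 1368) and 1374 bases (1353 to 1395). Coding bases made up a median of 21.7% of the span of EVM members and 8.03% of that of other EVM models. The shorter span of EVM members thus lay in its non-coding part, with a median of 5.13 kb against 15.8 kb. Over models of every source, the median coding length of members was 1050 bases, above the 1002 of all others but below the 1117 of others on scaffolds of at least 1 Mb, so its direction depends on which models are compared. These intervals cover counting error only, and neighbouring genes are not independent.

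From 10 neighbours upward, span fell with density also below the threshold. Median EVM span was 23.6 kb for models with 0 to 9 neighbours, 27.8 kb at 10 to 19, 13.333 kb at 30 to 39 and 7.88 kb at 50 to 59. Within the members it went on from 7.76 kb at 60 to 69 to 4.95 kb at 120 or more. The median number of coding exons stayed between 7 and 9 in all these classes. From 10 neighbours on, the members are therefore the dense end of a gradual change in span, with no break at 60.

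**Figure D4:**
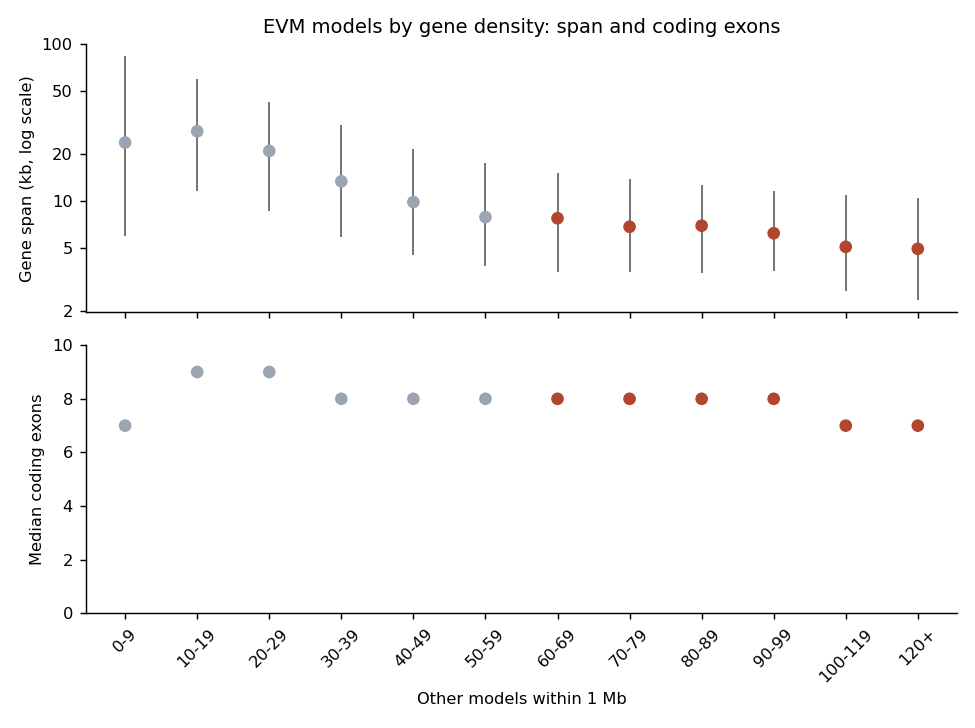
Median span of EVM gene models (upper panel, kb, log scale, bars from the lower to the upper quartile) and median number of coding exons (lower panel) by number of other models within 1 Mb, with members in red. Span is 23.6 kb at 0 to 9 neighbours and falls from 27.8 kb at 10 to 19 to 4.95 kb at 120 or more, while coding exons stay at 7 to 9.

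Gaps between genes were also short. Inside the neighbourhoods, 3762 stretches between merged models had a median of 6.91 kb (quartiles 2.54 and 15.4 kb), against 21.5 kb for 16646 stretches elsewhere. Gaps of 100 kb or more numbered 40 (1.06%) inside and 18.4% elsewhere, and the longest inside, 382 kb, lay in the scaffold 6 neighbourhood. Gaps under 1 kb numbered 489 inside, which is 12.998% of them, against 8.38% elsewhere. Models covered 43.9% of the bases of the neighbourhoods and 28.5% of the remaining bases of scaffolds of at least 1 Mb. Coding bases covered 6.32% and 1.39%, at 43.9 and 9.02 models per Mb.

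Despite the crowding, members overlapped other models about as often as genes elsewhere did. Of the members, 257 (6.77%, 95% Wilson interval 6.01 to 7.61) shared at least 1 base with another model, against 6.31% (5.97 to 6.65) of all others and 7.10% (6.72 to 7.497) of others on scaffolds of at least 1 Mb. All of these overlaps were between opposite strands. No model of the annotation overlapped another on the same strand, among members or others, so same-strand overlaps of real genes cannot be read from this table. Models lying wholly inside another were 3.40% of members and 2.84% of others.

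The longest overlaps joined models that span several genes. OR52K2 on scaffold 18 (41658796 to 42123581, minus strand) was given a span of 464.8 kb with 5 coding exons, the longest of any member, and shared 108 kb with OR51F1_copy3 and 104 kb with OR52K1. Olfactory receptors have a median span of 0.94 kb in this annotation, so this model is an outlier within its own family. OR52H1 and ATP5F1_copy5 shared 92.0 kb in the same neighbourhood. ZSCAN2 and IQGAP1, a scaffold protein gene of the cell cortex, shared 75.1 kb on scaffold 33. INSR and MUC16, a mucin gene, shared 56.0 kb on scaffold 14. These were the 5 longest of 144 overlaps between members with symbols.

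Neighbouring members more often ran in the same direction. Of 3732 adjacent member pairs, 57.7% (56.1 to 59.3) were on the same strand, against 51.0% (50.3 to 51.8) of 17400 other pairs. Adjacent olfactory receptor members were on the same strand in 80.1% of 418 pairs, and olfactory receptors outside the neighbourhoods in 79.6% of 275. Without any olfactory receptor the shares were 54.9% (53.1 to 56.6) and 50.6% (49.8 to 51.3). Models that match separate parts of the same target transcript were 10.98% of the receptor-free members and 6.82% of the other receptor-free models. How many of the same-strand pairs join such parts, and not separate genes, was not tested. Divergent pairs whose 5′ ends lay within 1 kb, the arrangement in which neighbours can share a promoter region, made up 2.46% (1.98 to 3.06) of the receptor-free member pairs and 1.11% (0.96 to 1.28) of the other receptor-free pairs. The rule chose models whose 5′ ends lie close to many others, so this share follows in part from the choice. No such pair was found among the olfactory receptor members.

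Olfactory receptors were the largest family in the neighbourhoods. Of 893 receptor models, 473 (53.0%) were members, beside 16.3% of all models, and they made up 12.5% of the members. They lay in 14 neighbourhoods. The largest array held 194 models of 62 symbols over 3654 kb of scaffold 18, with 94 to 162 neighbours each. The others with over 40 receptors were 59 models in the second neighbourhood of scaffold 18, between 39691115 and 42276925, 52 on scaffold 34 and 49 on scaffold 14. Receptor members had a median coding length of 939 bases, and 84.8% had 1 coding exon, as is usual for this family.

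The receptor families differed in how many of their models were members. Among families of over 50 models, and OR51 and OR52, the shares ran as follows. Of OR6 models 67 of 68 were members, of OR52 models 23 of 24 and of OR51 models 16 of 17. OR51 and OR52 belong to the class I receptors, which are often called fish-like, and all their members lay in that second neighbourhood of scaffold 18. For OR8 the count was 65 of 82, for OR5 73 of 104, for OR10 39 of 62, for OR4 79 of 134, for OR2 50 of 137 and for OR7 25 of 80. Of OR1 models 7 of 51 were members, and of OR14 models 3 of 80. The small families OR3, OR12 and OR13, with 3, 4 and 7 models, had no member. The symbol with most member models was OR6C2, with 34 models in the scaffold 34 array, of which 29 had 1 coding exon. OR2L13 and OR8D4 had 14 each.

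Counting without olfactory receptor models, 2985 of the 3324 other members still had 60 or more neighbours, and 38 of the 42 neighbourhoods kept at least 1 member. The 4 that kept none were the receptor arrays on scaffold 3, on scaffold 14 around OR8A1 and on scaffold 18 around ATP5F1_copy5, and the stretch around ITGAE on scaffold 25. In the scaffold 34 neighbourhood the highest count fell from 144 to 92. In that on scaffold 18 it fell from 162 to 136, then at PACS1_copy2. The neighbourhoods around CCDC155, ASGR1 and KRT16 hold no receptor and kept all their members.

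Keratins were almost all members, with 54 of 59 models (91.5%, Wilson interval 81.6 to 96.3). They formed 2 arrays. On scaffold 28, 29 models of 25 symbols lay within 805 kb with 84 to 103 neighbours, among them KRT10, KRT14, KRT16, KRT17 and KRT19. These are type I keratins, the acidic partners of a filament, and all 29 were on the minus strand. On scaffold 34, 25 models lay within 550 kb with 70 to 76 neighbours, among them the type II keratins KRT1, KRT5, KRT6A and KRT8, with KRT18, a type I keratin, beside KRT8. Of these, 21 were on the minus strand. The 10 keratin-associated protein members, which build the hair matrix, lay inside the scaffold 28 array between 8561677 and 8786856, out of 37 models in all.

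Other surface and skin families were grouped in single neighbourhoods as well. All 16 members among 32 S100 and cornified envelope models lay within 894 kb of scaffold 21, with 60 to 70 neighbours. They ran from S100A13 to LCE1E and included S100A8, a calcium-binding protein of neutrophils, and SPRR1B, a cornified envelope protein. The other 16 models of that list had up to 59 neighbours, so the group lies astride the threshold. On scaffold 36 lay all 10 CEACAM members of 11 models, cell adhesion molecules. It also held 7 SIGLEC members of 14 models in that list, receptors for sialic acid on leukocytes. Of less confined families it held 6 kallikreins and 8 of the 10 cytochrome P450 members. Those 8 were models of the CYP2A, CYP2B, CYP2F, CYP2G and CYP2S subfamilies within 308 kb, with 83 to 88 neighbours. Cytochrome P450 members were 10 of 68 models (14.7%, beside 16.3% of all models), in 3 neighbourhoods. Members among kallikreins and other serine proteases were 23 of 51 models, in 7 neighbourhoods. The protease members elsewhere included the trypsin gene PRSS1 on scaffold 5 (76 neighbours) and PRSS8 on scaffold 17 (89).

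For several families spread over the genome the share of members was closer to the 16.3% of all models. Solute carriers, the membrane transporters, had 82 of 408 models as members (20.1%) in 27 neighbourhoods. Zinc finger genes named ZNF had 58 of 369 (15.7%), with 22 on scaffold 36. TMEM genes had 42 of 239 (17.6%) and splicing factors 16 of 96 (16.7%). Of 15 models of RNA polymerase II subunits 6 were members, each in another neighbourhood, from POLR2J with 63 neighbours to POLR2A, the catalytic subunit, with 118. Ribosomal protein models were less often members, 43 of 527 (8.16%). Of these 527 models 120 had at least 2 coding exons, and 21 of the 120 (17.5%) were members.

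HOX genes, which pattern the body axis, were members in 1 of their clusters only. HOX members were 7 of 31 models (22.6%, Wilson interval 11.4 to 39.8, beside 16.3% of all models). They were HOXC13, HOXC12, HOXC11, HOXC9, HOXC8, HOXC6 and HOXC4 on scaffold 34, with 77 to 89 neighbours. The annotation held 8 HOXC models, and the one that was no member had 0 neighbours. HOXB genes had 46 or 47 neighbours, HOXA genes 21, and HOXD genes 17 or 18. The annotation held 3 HOXB models. No member, beside 16.3% of all models, was found among histones (0 of 44, median 36 neighbours) and protocadherins (0 of 22). The same held for MHC class I and II molecules (0 of 62) and butyrophilins (0 of 39). Several of these families are known for forming clusters. Of the MHC models 35 lay on scaffolds shorter than 1 Mb, and of the butyrophilins 26 did, and no model of such a scaffold was a member. In all, 972 members (25.6%) and 2865 other models (14.7%) belonged to any of the 30 families examined. Olfactory receptors were 473 of those 972 members and 420 of those 2865 others, so the contrast rests largely on that family.

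**Figure D5:**
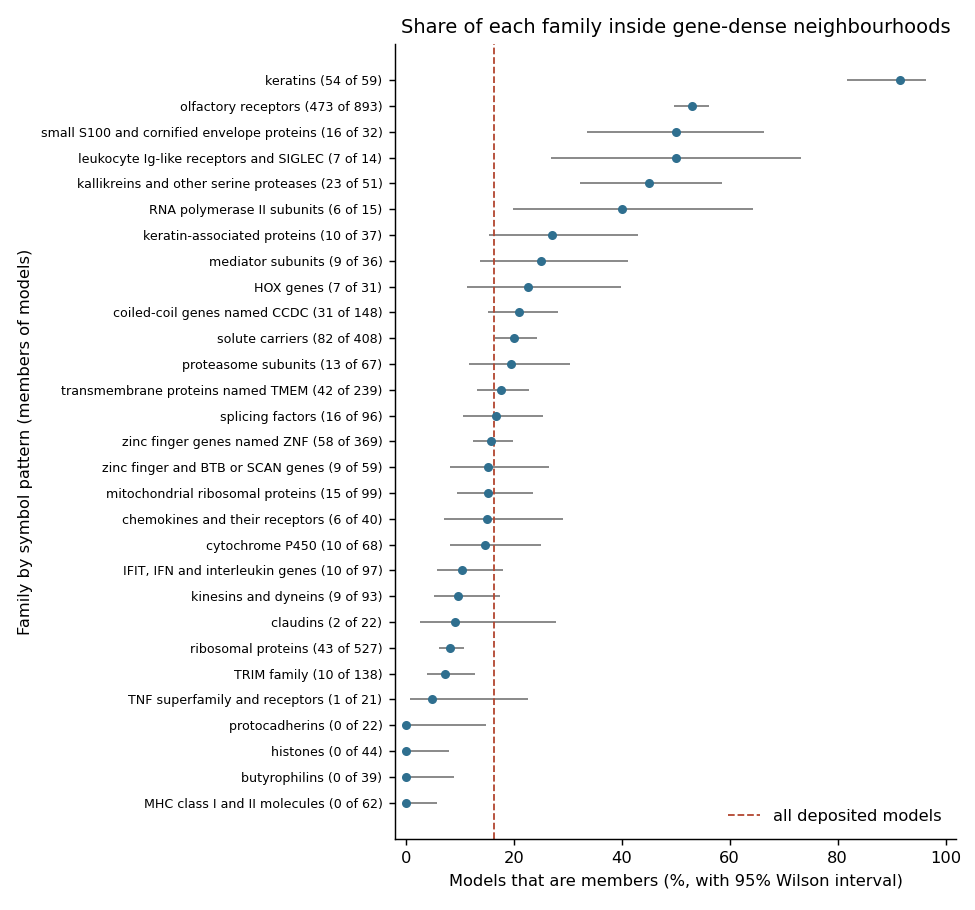
Share of each family's models that are members (horizontal axis, percent, bars showing the 95% Wilson interval) for families of at least 14 models, with counts beside each name. The dashed line is the 16.3% of all models, and keratins (91.5%) and olfactory receptors (53.0%) lie to its right while ribosomal proteins (8.16%) lie to its left.

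Genes from stretches known to be dense in the human genome were mostly members. Of 444 symbols listed for 9 human regions, 363 had a model here and 302 of these (83.2%) had a member, beside 16.3% of all models. The lists were written with earlier results of these data known. They include genes at the peaks named above, such as ANKRD52, ASGR1 and TCTA, so this share follows in part from their choice. Each list sat mainly on 1 mole scaffold. All 59 of the human chromosome 19p13 genes with a model were members and lay on scaffold 14, with a median of 106 neighbours, STK11, a growth-restraining kinase gene, having 108. All 44 of the 17p13.1 genes lay on scaffold 25 (median 118), all 50 of the 3p21 genes on scaffold 12 (median 85, with RHOA, a regulator of the cytoskeleton, at 89), and 49 of 50 of the 11q13 genes on scaffold 18 (median 130). For 19q13.33 the count was 41 of 43 on scaffold 36, and for 12q13 it was 30 of 32 on scaffold 34. Among models whose symbol is a human open reading frame number, 17 of 19 named for human chromosome 19 were members. Over all chromosomes, with those 17 included, 51 of 334 were. For the other chromosomes with a listed region the counts ran from 0 of 20 for chromosome 6 to 6 of 16 for chromosome 17. Chromosome 11 had 5 of 23 and chromosome 12 had 2 of 19.

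Fewer of the genes listed for the remaining regions were members. Of the 16p13.3 genes, 26 of 53 had no model and 22 of the 27 with one were members, near the end of scaffold 17, among them PKD1 and TSC2, genes of kidney cyst and tumour syndromes, at 80 neighbours each. NPRL3, MPG, RHBDF1 and SNRNP25 at the tip of that scaffold had 57. Of the 9q34.3 genes, 24 of 42 had no model and 7 of 18 were members, near the end of scaffold 15, where NOTCH1, the cell signalling receptor gene, had 73.

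Of the MHC class III genes, none of the 40 with a model was a member, although 39 of them lay on scaffold 59 at 85.1 models per Mb. That scaffold ended at base 704827 and held 60 models, so each had the other 59 as neighbours, 1 fewer than the rule asks. Median span there was 3.50 kb, the median gap 2.51 kb, and 12 of the 60 models overlapped another. NOTCH4 lay at one end, TNXB, an extracellular matrix gene, further in, and TNF, the inflammatory cytokine gene, near the other. Among the 2017 scaffolds shorter than 1 Mb no other model had more than 39 neighbours.

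The same kind of count was made over the protein-coding genes that RefSeq gives for MPIMG_talOcc4v2.1, a later build of the mole genome. Of 2749 member symbols that are no olfactory receptor, 2398 (87.2%) were found there, and they had a median of 80 coding neighbours. Of these, 89.4% (88.1 to 90.6) had at least 60, against 5.63% of 11601 other matched symbols. Over all 21597 coding genes of that table, a wider set not limited to matched symbols, the share was 24.3%. Members far above the threshold kept their place more often than those near it: 99.5% of those with 100 or more neighbours had at least 60 in RefSeq, 68.6% of those with 60 to 69, and 23.2% of the non-members with 50 to 59. Across 13999 symbols the 2 counts had a Spearman correlation of 0.920, as a description, since neighbouring genes share their counts and both builds are of the same species. The median RefSeq gene length was 10.3 kb for members and 28.5 kb for the others. Adjacent member pairs were also adjacent in RefSeq for 1942 of 2017 pairs (96.3%), and other pairs for 95.8%.

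Of the 10 neighbourhoods within 1 Mb of a scaffold end, 7 had a higher median count in the later build, 1 the same and 2 a lower one. Of the other 32, 7 were higher, 2 the same and 23 lower. Matched genes of the neighbourhood ending at AXIN1 on scaffold 17 had a median of 131 coding neighbours in RefSeq and 81 in the deposited annotation. For the NOTCH1 neighbourhood of scaffold 15 the medians were 95.5 and 65.5. Of the listed 16p13.3 genes without a deposited model, 19 were in the RefSeq table, and of those of 9q34.3, 23 were, each with at least 60 coding neighbours there. All 43 matched MHC class III genes had 67 to 70. In the reverse direction, the 4 matched genes of the receptor array on scaffold 3 had a median of 63.5 deposited and 29.5 RefSeq neighbours.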

How the data were processed

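Both samples are 4C-seq libraries, whose reads were mapped with BWA per the submitters' processing notes, which give no version. The single table used was the authors' deposited gene annotation of talOcc3, whose positions count bases from 1. Per the file's second column, models came from EVM, exonerate (an aligner) or ALN, which the file does not explain. Transcripts also carry a deposited score, which entered no value here. The 4C depth is unknown. Each gene has 1 transcript, from which coding exons and coding length were taken, and no untranslated region was read. A symbol is the model name without its copy suffix, and scaffold length is the last annotated base. Columns of per-sample values left unused numbered 0.

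Neighbours, merging within 1 Mb, gaps between models merged by any overlap, and overlaps of at least 1 base were computed with Python 3.11.15, pandas 2.3.3, numpy 2.4.6, scipy 1.17.1 and matplotlib 3.10.9. On 4800 simulated models the routines matched a direct count for all 4800. They also found 10 of 10 neighbourhoods planted above the threshold, which checks the code only. Wilson intervals and intervals of medians (95%) cover counting error only. Families are symbol patterns and the region lists are from general knowledge. Members, lists and families were chosen with earlier results of these data known. The text names, for the 10 neighbourhoods with most members, the model with most neighbours, the named models near it, the ends, the longest and shortest members, and further the 5 members with most neighbours, the 5 longest overlaps, and genes of the families and lists, of which a few serve as examples. No sequence of talOcc3 was used here.

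RefSeq matching took 1 model per symbol, left out olfactory receptors, counted protein-coding genes by start, and took a sequence to end where the start position fell in the table. Its positions are of another build and are not printed. Alternatives varied the window, the threshold, the merging distance and the models counted, and some were chosen after seeing the data.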

Additional observations from a re-analysis of the deposited data

How the results depend on the processing

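The 3797 members became 2254 when only models of at least 2 coding exons were counted, 1659 with EVM models only and 2045 with 1 model per symbol. The other 11 settings gave 2617 to 5634. Among them, merging overlapping models on 1 strand could only return 3797, since the annotation has no such overlap. Neighbourhoods numbered 87 with a 0.5 Mb window and 30 neighbours, 17 with 2 Mb and 120, and 22 with EVM models, against 42. The median member span was 6.71 kb for models of at least 2 coding exons, 6.77 kb for EVM models and 5.70 kb without olfactory receptors. The median gap was 14.3 kb with the strands kept apart. The overlap share was 5.50% among models of at least 2 coding exons. The share of olfactory receptors that are members was 40.9% for models of at least 2 coding exons and 64.4% by symbol. Median coding exons were 8 (EVM) and 7 (no olfactory receptors), and median coding length 1326 and 1193.5 bases. The single-exon share, 19.1% of members and 25.8% of others, was 0.15% of EVM members and 9.75% of members without olfactory receptors.

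Members kept the shorter span under all 4 other comparisons made. Against others on scaffolds of at least 1 Mb, the difference in single-exon share turned to 1.22 points, that in overlap share to -0.33 points and that in coding length to -67 bases. With EVM models the coding length difference was -48 bases, and with models of at least 2 coding exons -19.5. The cause was not tested. Scaling each count to the annotated part of its window gave 4416 members, among them the 60 models of scaffold 59. Chosen after seeing the data were the counts of members by symbol, without olfactory receptors, with target parts joined and scaled, the spans of EVM models and without olfactory receptors, and the comparisons with other sets of models. No replicate could be left out, since there is 1 library per tissue. No paired analysis was possible because no column holds the values of a library.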

Other observations

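Some of the neighbourhoods outside the 10 with most members have contents not described above. On scaffold 5, 82 members lay between 66672474 and 68396900, of which 33 carried no symbol, 17 were olfactory receptors and 81.7% were on the plus strand, the most uneven strand share among neighbourhoods of over 50 members. On scaffold 34, a separate neighbourhood of 43 members had its highest count, 82, at CD163L1, a scavenger receptor gene with 5 models there. On scaffold 5, 26 members around KCNH2, a heart potassium channel gene, had 4.29 kb as median gap, and 13 of them carried a copy suffix.

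Copies and fragments are part of what was counted. Among members, 759 (19.99%) carried a copy suffix, against 23.0% of all others and 18.3% of others on scaffolds of at least 1 Mb, so the direction depends on which models are compared. Models that match separate parts of the same target transcript were 9.88% of members and 6.70% of others. With such parts taken as 1 model, a setting chosen after seeing the data, 3230 models in 33 neighbourhoods had 60 or more neighbours.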
